A study of Mus musculus with 10 samples.

Results

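DOT1L is the enzyme that methylates lysine K79 on the globular face of histone H3, a mark carried by the bodies of transcribed genes. The transcripts examined here are Dot1l and 9 genes whose proteins work with it in transcription elongation: Mllt1, Mllt3, Mllt6, Mllt10, Aff1, Aff3, Aff4, Kmt2a and Men1. These 10 genes were chosen by name, with earlier results of these data known, from 43629 gene identifiers counted in the series. All 10 passed the low-count filter and were tested in all 10 samples. The tissue was the E14.5 dorsal telencephalon, the anlage of the cerebral cortex, of C57BL/6 mouse embryos, from which total RNA was sequenced. The 5 control embryos carried no Cre and 1 floxed Dot1l allele (Dot1l-cKO f/+). The 5 Dot1l-cKO embryos carried Cre and 2 floxed alleles (Cre/+; Dot1l-cKO f/f). The Cre allele went with the Dot1l-cKO genotype, so its effects cannot be told apart from those of the loss of Dot1l. Cre is active in the telencephalon and in other parts of the developing head, and which of the sampled cells recombined was not measured here. The names control and Dot1l-cKO stand for the genotype labels of the libraries throughout.

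DOT1L has no sequence-specific DNA binding of its own and is brought to chromatin by partners. ENL (gene Mllt1) and AF9 (Mllt3) read acylated lysines of histone H3 with a YEATS domain, and AF10 (Mllt10) and AF17 (Mllt6) bind DOT1L through a leucine zipper region. ENL and AF9 also bind AFF proteins, the scaffolds of the super elongation complex, which holds the kinase P-TEFb that releases paused RNA polymerase II. KMT2A, a histone H3K4 methyltransferase that binds menin (Men1), is joined to several of these partners by chromosomal translocations in leukaemia, which is how many of them were first found. In the developing cortex Dot1l is studied for its part in progenitor division and in the choice of neuronal identity.

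The starts of 4 genes are shown. Of these, 3, Dot1l, Aff1 and Kmt2a, were low together in the same Dot1l-cKO library, and Aff2 was the pathway gene called by edgeR. Aff3 was low in that library too, and its start is not shown. Each window runs from 250 bases before to 50 bases after the RefSeq start of the GRCm38.p6 assembly and is written 5′ to 3′ on the gene's strand. The windows are chr10:80754953-80755252 (plus strand) for Dot1l, chr5:103753912-103754211 (plus) for the first of 2 RefSeq Aff1 starts, chr9:44881240-44881539 (minus) for Kmt2a and chrX:69360081-69360380 (plus) for Aff2. In the GENCODE annotation Aff1 begins further upstream, at base 103692374. Capitals mark the GC box GGGCGG on either strand.
Dot1l: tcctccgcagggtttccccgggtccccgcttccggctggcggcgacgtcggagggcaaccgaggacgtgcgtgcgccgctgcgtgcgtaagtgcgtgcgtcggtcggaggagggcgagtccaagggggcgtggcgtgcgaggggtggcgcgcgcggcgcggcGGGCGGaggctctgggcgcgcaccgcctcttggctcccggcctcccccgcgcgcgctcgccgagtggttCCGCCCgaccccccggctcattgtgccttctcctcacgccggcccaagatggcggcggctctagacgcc
Aff1: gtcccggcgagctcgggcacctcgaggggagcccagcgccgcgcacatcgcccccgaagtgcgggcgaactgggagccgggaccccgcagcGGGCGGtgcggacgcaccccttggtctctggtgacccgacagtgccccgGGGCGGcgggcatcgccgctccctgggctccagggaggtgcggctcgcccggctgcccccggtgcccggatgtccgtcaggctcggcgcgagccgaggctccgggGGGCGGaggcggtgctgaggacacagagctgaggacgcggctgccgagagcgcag
Kmt2a: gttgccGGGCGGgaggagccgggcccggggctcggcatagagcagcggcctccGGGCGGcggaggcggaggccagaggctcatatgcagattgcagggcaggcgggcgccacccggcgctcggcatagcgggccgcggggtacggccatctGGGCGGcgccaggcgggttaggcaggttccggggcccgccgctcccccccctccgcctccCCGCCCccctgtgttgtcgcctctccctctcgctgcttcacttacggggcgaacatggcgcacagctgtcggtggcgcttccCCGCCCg
Aff2: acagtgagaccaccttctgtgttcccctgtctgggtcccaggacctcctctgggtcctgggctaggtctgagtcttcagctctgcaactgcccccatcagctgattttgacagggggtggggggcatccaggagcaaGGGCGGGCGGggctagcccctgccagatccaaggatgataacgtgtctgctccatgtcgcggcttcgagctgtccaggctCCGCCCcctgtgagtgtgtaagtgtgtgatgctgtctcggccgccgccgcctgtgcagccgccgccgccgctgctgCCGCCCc
The GC box was present in all 4 windows, 2 times in Dot1l, 3 times in Aff1, 5 times in Kmt2a and 4 times in Aff2, where a pair of matches overlap. It was found in 35.7% of 32851 RefSeq windows of this length. Windows of other members also held it, with 7 matches in Mllt1, 6 in Mllt6 and 5 in Aff3. Aff4 had 0, so the GC box does not set the windows shown apart. CG dinucleotides numbered 49 in Dot1l, 40 in Aff1, 36 in Kmt2a and 16 in Aff2. There were 54 in Aff3, 46 each in Mllt1 and Mllt6, 44 in Aff4 and a median of 7 over all windows. The CCAAT box (CCAAT on either strand, in 37.4% of all windows) and the TATA box (TATAAA on either strand, in 13.6%) had no match in the 4 windows. These matches describe the letters only.

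Total counts were between 54202349 and 66556034 per sample. Replicates 2 and 3 of both groups, which have the header number 57 in the deposited normalised tables, had a share of mitochondrial rRNA of 0.0471% to 0.492%, against 5.79% to 10.9% in the other 6 samples. Dot1l-cKO replicate 2 stood apart most. The SD of its deviation from the group median over 10383 genes was 0.37 log2 units, the highest of the 10 samples. Across genes this deviation had a Spearman correlation of -0.32 with transcript length, the largest of the 10 samples in absolute value. With GC content the correlation was -0.31, which did not set the library apart. Larger absolute GC values were found elsewhere, such as 0.51 for Dot1l-cKO replicate 4 and -0.47 for control replicate 1. Each result that rests on Dot1l-cKO replicate 2 is given with and without it. Dorsal telencephalon markers were present in every sample, with sums over 8 genes of 1359 to 1639 CPM (counts scaled to a library total of 1000000) in controls and 1492 to 1674 CPM in Dot1l-cKO. By the edgeR test described below, 3 of these 8 genes, Emx1, Emx2 and Pax6, had an unadjusted p under 0.05. The log2 fold changes of these 3 were -0.29, -0.52 and -0.36, and of the 8 genes 4 were negative and 4 positive. By the same test, the 5 microglia markers were all called as increased. The microglia sums were 27.1 to 46.5 CPM in controls and 55.1 to 82.1 CPM in Dot1l-cKO. Of 6 ventral telencephalon and interneuron markers Lhx6 was called as decreased. All 6 had negative log2 fold changes, from -3.00 to -1.56, and 5 had an unadjusted edgeR p under 0.05. Their sums ran from 53.9 to 273 CPM in controls and from 5.32 to 80.0 CPM in Dot1l-cKO. Among 6 progenitor markers edgeR called Pax6, which is also 1 of the 8 dorsal markers, as decreased and Vim as increased. Of these 6 genes 5 had negative log2 fold changes, and 3 (Pax6, Sox2 and Vim) had an unadjusted edgeR p under 0.05. DESeq2 called Sox2 too, at -0.40 (adjusted p = 0.0121). Summed over the 6, controls had 2089 to 2502 CPM and Dot1l-cKO libraries 2391 to 2739 CPM. The upward shift of this sum came from Vim, the 1 gene with a positive log2 fold change (0.53). Of 4 striatal markers Ppp1r1b was called as increased (control sums of 26.8 to 66.5 CPM, Dot1l-cKO sums of 41.5 to 52.5 CPM). In the lists for postmitotic neurons, endothelium, erythroid cells, meninges and choroid plexus edgeR and DESeq2 each called 0 genes, and 1 of these 24 markers had an unadjusted p under 0.05. The part of these marker shifts in the results on Dot1l and its partners was not tested. In bulk tissue, fewer cells of a type and less RNA per cell cannot be told apart.

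Dot1l, the targeted gene, was not lower by its whole-gene count in the Dot1l-cKO group as a whole. Its level was 31.4, 41.5, 36.6, 40.6 and 36.3 CPM in control replicates 1 to 5 and 42.3, 20.1, 39.6, 43.4 and 51.7 CPM in Dot1l-cKO replicates 1 to 5. Dot1l-cKO replicate 2 lay below all controls, 3 Dot1l-cKO libraries lay above all controls, and the groups overlapped. Its mean was 37.3 ± 4.04 CPM over the controls, and 39.4 ± 11.7 CPM over the Dot1l-cKO libraries (SD, n = 5 each). With edgeR's quasi-likelihood test over 17039 genes the log2 fold change was 0.08 (SE 0.20, 95% interval -0.36 to 0.52, adjusted p = 0.864). The interval of the fold ran from 0.780 to 1.43. Without Dot1l-cKO replicate 2 the log2 fold change was 0.25 (adjusted p = 0.204), and without Dot1l-cKO replicate 5 it was -0.046 (adjusted p = 0.929). The adjusted p ranged from 0.118 to 0.992 over the other alternatives.

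In GRCm38 the Dot1l gene (ENSMUSG00000061589, plus strand) spans chromosome 10 bases 80755206 to 80795461, with 8705 exonic bases in 28 merged exons. The deposited count sums reads over all exons. The position of the floxed exons is not given in the sources used here, and a count over the whole gene does not separate removed exons from those that remain, so it does not check the genotype labels. By qRTPCR the paper reports significantly depleted Dot1l mRNA in the Dot1l-cKO telencephalon at E14.5. Within the 4 samples of header number 57 the difference in mean log2 CPM between Dot1l-cKO and control was -0.47, and within the other 6 it was 0.35. Fitted within each set by edgeR, the log2 fold changes were -0.37 (adjusted p = 0.591) and 0.34 (adjusted p = 0.202). The difference between the sets was tested as an interaction, which gave -0.73 (SE 0.34, edgeR adjusted p = 0.728). In this fit of all 10 samples 0 interactions were called over all genes, and 0 members had an unadjusted p under 0.05. For Dot1l the unadjusted edgeR p of the interaction was 0.0543. Leaving out Dot1l-cKO replicate 3, which leaves replicate 2 as the lone Dot1l-cKO library with that header number, moved the interaction to -1.30 (adjusted p = 0.0605), and without Dot1l-cKO replicate 2 it was -0.32 (adjusted p = 1.0).

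**Figure D1:**
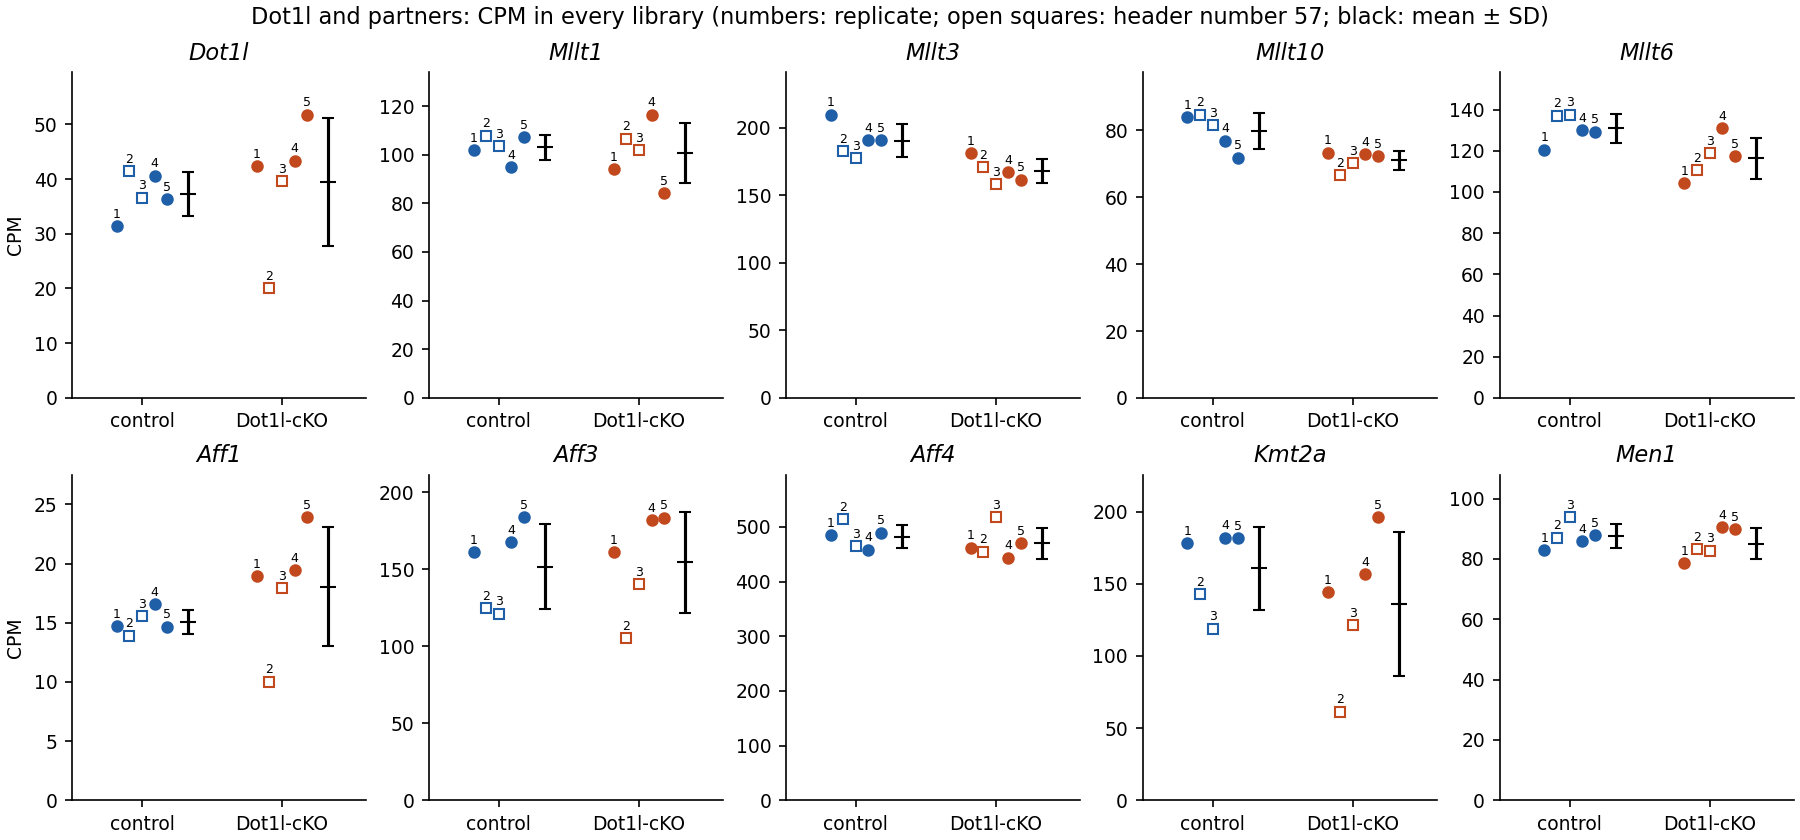
Level in CPM (vertical axes, each starting at 0) of Dot1l and its 9 partners in 5 control (blue) and 5 Dot1l-cKO (orange) libraries, with the replicate number at each point, open squares for header number 57 and the group mean ± SD in black. Dot1l-cKO replicate 2 is the lowest of the 10 libraries for Dot1l, Aff1, Aff3, Kmt2a and Mllt10, and the groups overlap for every gene.

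Of the 10 members, 0 were called by edgeR at an adjusted p under 0.05, where 7.11% of all genes tested were called, 5.67% as increased and 1.44% as decreased. An unadjusted p under 0.05 was found for 3 members, Mllt3, Mllt10 and Mllt6, which is 30.0% of the members against 20.6% of all genes tested. DESeq2 called 2 members, Mllt3 and Mllt10, where it called 10.4% of the genes it gave an adjusted p. In CPM the groups overlapped for all 10 members, where they did not overlap for 8.34% of all genes. The log2 fold changes ran from -0.24 for Kmt2a to 0.26 for Aff1, 7 of 10 were negative, and their median was -0.04, beside -0.0056 over all genes tested, of which 51.2% were negative. EdgeR called 1 member, Aff1, without Dot1l-cKO replicate 2.

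Relative to exon length, the partners were more abundant than the enzyme with 1 exception. Levels were divided by the merged exon length of each gene, which counts exons of isoforms that may not be used in this tissue. The order and the shares given below depend on this choice of length. For Mllt3 the merged length was 12004 bases, against 6069 bases for its longest annotated transcript. The order was not worked out with other lengths. In controls Aff4, the scaffold of the super elongation complex, was highest at 35.9 ± 1.62 CPM per kb (SD, n = 5), and Aff1, the other name of which is AF4, was lowest at 1.59 ± 0.107 CPM per kb. The ratio of these means was 22.5. Dot1l was next to lowest at 4.28 ± 0.464 CPM per kb.

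Between them, from high to low, came Mllt1 at 26.3, Men1 at 22.8, Aff3 at 22.8, Mllt6 at 17.6, Mllt3 at 15.9, Mllt10 at 13.5 and Kmt2a at 9.64 CPM per kb as control means. The ranges of the 5 controls overlapped between Mllt1 and Men1, Men1 and Aff3, Aff3 and Mllt6, and Mllt6 and Mllt3, so these neighbours did not differ beyond their spread. The other neighbours in this order did not overlap. Levels of Dot1l in Dot1l-cKO were 2.31 to 5.94 CPM per kb, and those of Kmt2a were 3.68 to 11.8 CPM per kb, so in that group the 2 ranges overlapped.

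**Figure D2:**
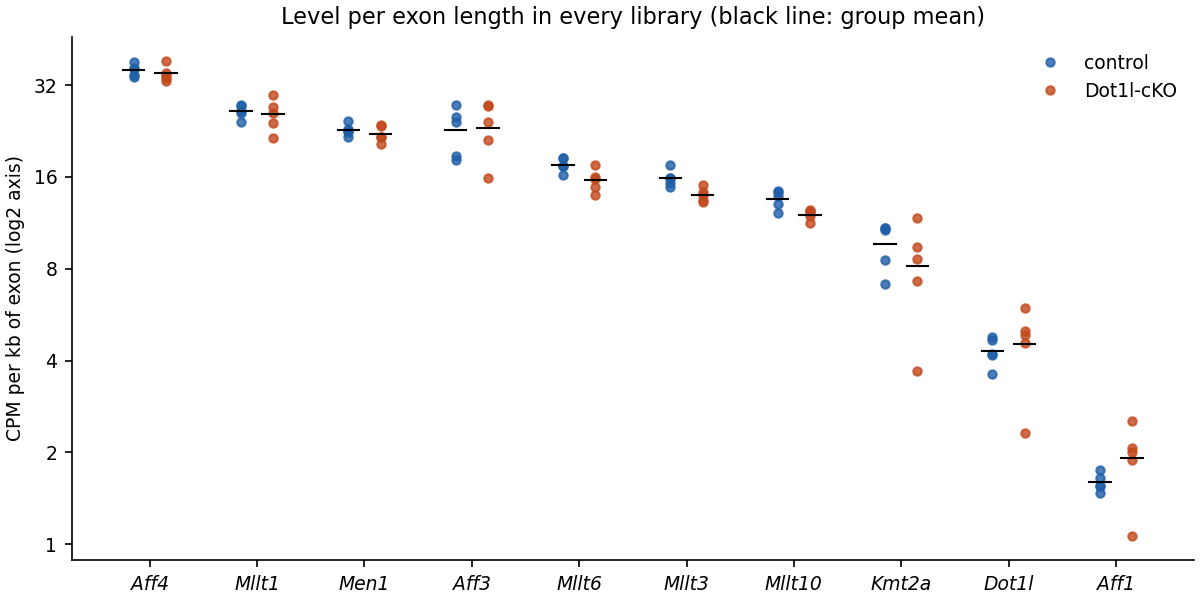
Level in CPM per kb of exon (vertical log2 axis) of the 10 genes, ordered by their control mean, in each control (blue) and Dot1l-cKO (orange) library, with black lines for group means. Aff4 is highest with a control mean of 35.9 and Aff1 lowest with 1.59 CPM per kb.

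The YEATS-domain partners ENL and AF9 showed small differences. Mllt3 (ENSMUSG00000028496, chromosome 4 from 87769925 to 88033364, minus strand) encodes AF9. Its level was 209.7, 182.8, 177.7, 191.0 and 191.0 CPM in control replicates 1 to 5 and 181.3, 171.0, 158.5, 167.3 and 161.8 CPM in Dot1l-cKO replicates 1 to 5. In 4 Dot1l-cKO libraries it was below every control, and in 5 of 5 pairs with the same replicate number the Dot1l-cKO library was lower. Mllt3 thus had a log2 fold change of -0.18 (SE 0.07, 95% interval -0.33 to -0.04, edgeR adjusted p = 0.140), and DESeq2 gave -0.21 (adjusted p = 0.0287). With the replicate number as a block, under which 9.41% of all genes and 0 of the members were called, its edgeR adjusted p was 0.0710. Over all alternatives the adjusted p of Mllt3 ranged from 0.0287 to 0.631.

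Mllt1 (ENSMUSG00000024212, chromosome 17 from 56892611 to 56935415, minus strand), which encodes ENL, had 94.8 to 107.9 CPM in controls (median 103.5) and 84.1 to 116.4 CPM in Dot1l-cKO (median 101.8). The Dot1l-cKO libraries spread to both sides of the controls. For Mllt1 the log2 fold change was -0.03 (SE 0.09, 95% interval -0.22 to 0.16, edgeR adjusted p = 0.866). Of the summed level of Mllt1 and Mllt3 per kb, Mllt3 made up 37.6 ± 2.16% in controls and 35.4 ± 3.02% in Dot1l-cKO (SD, n = 5 each), with overlapping ranges. The size of this share rests on the merged exon length used for Mllt3, which is longer than its longest annotated transcript.

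The AF10 and AF17 genes had values close to that of Mllt3. Mllt10 (ENSMUSG00000026743, chromosome 2 from 18055237 to 18212388, plus strand) encodes AF10, a cofactor of DOT1L activity. Its level was 84.1, 84.7, 81.6, 77.0 and 71.9 CPM in control replicates 1 to 5 and 73.4, 66.6, 70.2, 72.9 and 72.4 CPM in Dot1l-cKO replicates 1 to 5. In Dot1l-cKO 2 libraries, replicates 2 and 3, lay below every control. For Mllt10 it was -0.17 on the log2 scale (SE 0.06, 95% interval -0.31 to -0.03, edgeR adjusted p = 0.159), and DESeq2 gave -0.19 (adjusted p = 0.0288, with a range of 0.0288 to 0.554 over the alternatives). The difference of mean log2 CPM was -0.28 within the samples of header number 57 and -0.09 within the others.

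Mllt6 (ENSMUSG00000038437, chromosome 11 from 97663414 to 97685463, plus strand) encodes AF17. It had 120.6, 137.1, 137.5, 129.8 and 129.2 CPM in control replicates 1 to 5 and 104.1, 110.5, 118.9, 130.9 and 117.5 CPM in Dot1l-cKO replicates 1 to 5. In 4 Dot1l-cKO libraries it was below every control, and Dot1l-cKO replicate 4 lay among the controls. Mllt6 had a log2 fold change of -0.17 (SE 0.07, 95% interval -0.33 to -0.01, edgeR adjusted p = 0.216), and DESeq2 gave -0.20 (adjusted p = 0.1004, with a range of 0.0966 to 0.594 over the alternatives). Of the summed level of Mllt6 and Mllt10 per kb, Mllt10 made up 43.5 ± 2.06% in controls and 43.6 ± 2.14% in Dot1l-cKO. The interval of the fold was 0.796 to 0.994 for Mllt6 and 0.808 to 0.981 for Mllt10.

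Among the AFF scaffolds Aff1 had the highest fold change of the members, and its value turned on Dot1l-cKO replicate 2. Aff1 (ENSMUSG00000029313, chromosome 5 from 103692374 to 103855322, plus strand) had 14.7, 13.9, 15.6, 16.6 and 14.7 CPM in control replicates 1 to 5 and 18.9, 10.02, 17.9, 19.5 and 23.9 CPM in Dot1l-cKO replicates 1 to 5. In 4 Dot1l-cKO libraries it was above every control, and in replicate 2 it was below every control. Over all libraries the log2 fold change of Aff1 was 0.26 (SE 0.18, 95% interval -0.14 to 0.66, edgeR adjusted p = 0.474). Without Dot1l-cKO replicate 2 it was 0.41 (SE 0.10, adjusted p = 0.0375), and 6.06% of all genes were called in that fit. Without replicate 2 of both groups, an alternative added after the data were examined, the log2 fold change of Aff1 was 0.38 (adjusted p = 0.0873) and 0 members were called. Within the 6 samples outside header number 57 the log2 fold change of Aff1 was 0.44 (edgeR adjusted p = 0.109, with 4.33% of all genes called), and within the 4 samples of that number it was -0.06 (adjusted p = 0.932, with 0.0293% called). The interaction of genotype with header number was -0.52 (adjusted p = 0.734).

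Aff4 (ENSMUSG00000049470, chromosome 11 from 53350833 to 53421830, plus strand), whose protein is the main scaffold of P-TEFb in many cells, varied little. It had 458.5 to 513.8 CPM in controls (median 485.5) and 444.1 to 518.3 CPM in Dot1l-cKO (median 462.3). The log2 fold change was -0.04 (95% interval -0.18 to 0.10, edgeR adjusted p = 0.793), so that the interval of the fold was 0.884 to 1.07. Aff3 (ENSMUSG00000037138, chromosome 1 from 38177326 to 38664955, minus strand), a scaffold of a related elongation complex, had 121.0 to 183.9 CPM in controls (median 160.9) and 105.2 to 183.4 CPM in Dot1l-cKO (median 161.2).

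In both groups Aff3 was lower in replicates 2 and 3, the samples of header number 57, than in the other 3 libraries. Its log2 fold change was 0.03 (95% interval -0.34 to 0.39, edgeR adjusted p = 0.952), and 0.14 without Dot1l-cKO replicate 2 (adjusted p = 0.624). Without Dot1l-cKO replicate 5, the library that moved it most in the negative direction, it was -0.05 (adjusted p = 0.903). Of the summed level of the 3 scaffolds per kb, Aff4 made up 59.7 ± 4.51% in controls and 58.5 ± 5.94% in Dot1l-cKO, Aff3 made up 37.6 ± 4.58% and 38.3 ± 5.38%, and Aff1 made up 2.66 ± 0.276% and 3.13 ± 0.655% (SD, n = 5 each).

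Kmt2a had the most negative fold change and the widest interval. Kmt2a (ENSMUSG00000002028, chromosome 9 from 44803355 to 44881296, minus strand) had 178.1, 142.6, 118.8, 182.0 and 181.7 CPM in control replicates 1 to 5 and 144.0, 61.4, 121.2, 156.7 and 196.3 CPM in Dot1l-cKO replicates 1 to 5. Dot1l-cKO replicate 2 lay below every other library, and replicates 2 and 3 were the lowest of each group. The log2 fold change was -0.24 (SE 0.25, 95% interval -0.79 to 0.31, edgeR adjusted p = 0.645). Without Dot1l-cKO replicate 2 it was -0.06 (adjusted p = 0.878), and without Dot1l-cKO replicate 5, the highest library, it was -0.42 (adjusted p = 0.384). The longest annotated transcript of Kmt2a has 16470 bases, that of Aff1 8323 bases, that of Dot1l 6808 bases and that of Aff3 6010 bases. Aff4 with 10099 bases and Mllt6 with 7274 bases are longer than Dot1l. In Dot1l-cKO replicate 2 they differed by -0.04 and -0.10 log2 units from the median of the other Dot1l-cKO libraries. Each ranked 2 there, counted from the lowest of all 10 libraries. The part of transcript length in the low counts of that library was not tested.

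Men1 (ENSMUSG00000024947, chromosome 19 from 6334979 to 6340891, plus strand), which encodes menin, had the narrowest interval of the 10 genes. It had 82.9 to 93.9 CPM in controls (median 87.0) and 78.6 to 90.5 CPM in Dot1l-cKO (median 83.1). The log2 fold change was -0.04 (95% interval -0.18 to 0.09, edgeR adjusted p = 0.756), so the interval of the fold was 0.883 to 1.07. In Dot1l-cKO replicate 2 it stood at 83.1 CPM, inside the range of the other 4 Dot1l-cKO libraries.

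**Figure D3:**
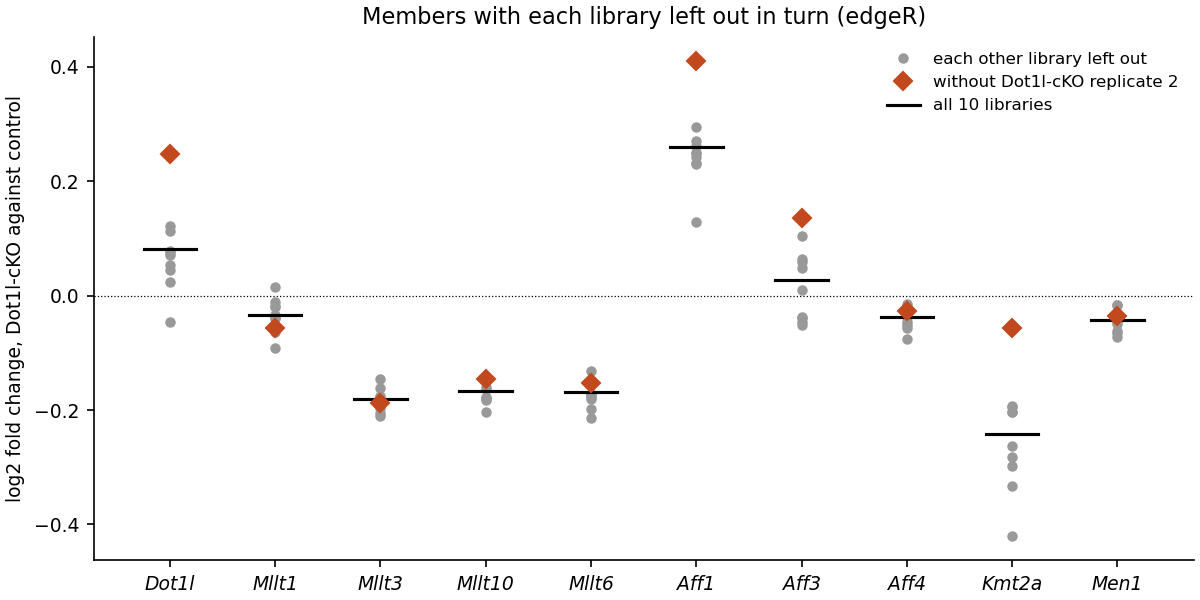
Log2 fold change of Dot1l-cKO against control for the 10 members (vertical axis) with all 10 libraries (black lines), without Dot1l-cKO replicate 2 (orange diamonds) and without each other library (grey points), from edgeR. Without Dot1l-cKO replicate 2 Dot1l moves from 0.08 to 0.25, Aff1 from 0.26 to 0.41 and Kmt2a from -0.24 to -0.06, while Mllt3 moves from -0.18 to -0.19.

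The 10 members varied in different ways over the samples. On the log2 CPM scale Dot1l and Aff1 had a Pearson r of 0.90 over 10 samples and of 0.80 without Dot1l-cKO replicate 2, and Dot1l and Kmt2a had 0.78 and 0.16. The relation of Dot1l with Kmt2a thus rested on that library. Aff3 and Kmt2a had 0.86 and 0.80, and Mllt6 and Men1 had 0.78 and 0.77. Dot1l and Mllt3 had -0.22 over all samples and -0.73 without Dot1l-cKO replicate 2. These values describe 10 libraries that share 2 genotypes, header numbers, depth and base composition biases, and they were not tested.

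In Dot1l-cKO replicate 2 the members fell into separate sets by level. Relative to the median of the other 4 Dot1l-cKO libraries, log2 CPM differed by -1.29 for Kmt2a, -1.09 for Dot1l, -0.94 for Aff1 and -0.70 for Aff3. It differed by -0.12 to 0.12 for the other 6 members. A lower difference than that of Kmt2a was found for 2.58% of the genes tested, and for Dot1l this share was 4.20%.

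The wider elongation machinery held 41 genes in 6 lists, of which 40 were tested and 1, Aff2, was called by edgeR, beside 7.11% of all genes tested. An unadjusted p under 0.05 was found for 2, Aff2 and Yeats4, which is 5.0% of the 40 beside 20.6% of all genes. DESeq2 called 1, Aff2, beside 10.4% of the genes to which it gave an adjusted p. Over the 40 genes 31 log2 fold changes were negative, or 77.5% beside 51.2% of all genes tested, and the median was -0.07. The groups overlapped for all 40.

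The list of other super elongation complex and P-TEFb subunits held Aff2, Cdk9, Ccnt1, Ccnt2, Ell, Ell2, Eaf1 and Eaf2, with 1 increased, 0 decreased and a median log2 fold change of 0.05, and Ell3, with at most 0.0483 CPM, which was not tested. Aff2 (ENSMUSG00000031189) encodes a scaffold related to AFF1, AFF3 and AFF4. It had 37.6, 33.8, 28.0, 34.3 and 37.5 CPM in control replicates 1 to 5 and 53.6, 34.6, 46.1, 56.96 and 65.2 CPM in Dot1l-cKO replicates 1 to 5. In 4 Dot1l-cKO libraries it was above every control, and Dot1l-cKO replicate 2 lay inside the control range. Aff2 rose by a log2 fold change of 0.58 (SE 0.15, 95% interval 0.25 to 0.92, edgeR adjusted p = 0.0414), with DESeq2 at 0.56 (adjusted p = 0.0126). Without Dot1l-cKO replicate 2 it was 0.70 (adjusted p = 0.00678). When any of the other 9 libraries was left out, a control or a Dot1l-cKO, the call was lost, with log2 fold changes of 0.47 to 0.62 and adjusted p-values of 0.0503 to 0.0988. It was also lost with DESeq2 size factors in edgeR (adjusted p = 0.0528) and with limma (adjusted p = 0.0660).

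Within the 6 samples outside header number 57 Aff2 rose by 0.68 (edgeR adjusted p = 0.0132), and within the 4 samples of that number its log2 fold change was 0.41 (adjusted p = 0.379). The difference between these sets, tested as an interaction, was -0.30 (adjusted p = 0.738). Ccnt1, the cyclin of P-TEFb and the most abundant gene of the list in CPM, had 109 ± 11.4 CPM in the control group, against 97.0 ± 11.4 CPM in Dot1l-cKO, a log2 fold change of -0.17 (95% interval -0.39 to 0.05, edgeR adjusted p = 0.374). Its kinase Cdk9 had a log2 fold change of 0.17 (adjusted p = 0.503) and was highest of all 10 libraries in Dot1l-cKO replicate 2, at 54.2 CPM. Without that library the log2 fold change of Cdk9 was 0.07 (edgeR adjusted p = 0.767).

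**Figure D4:**
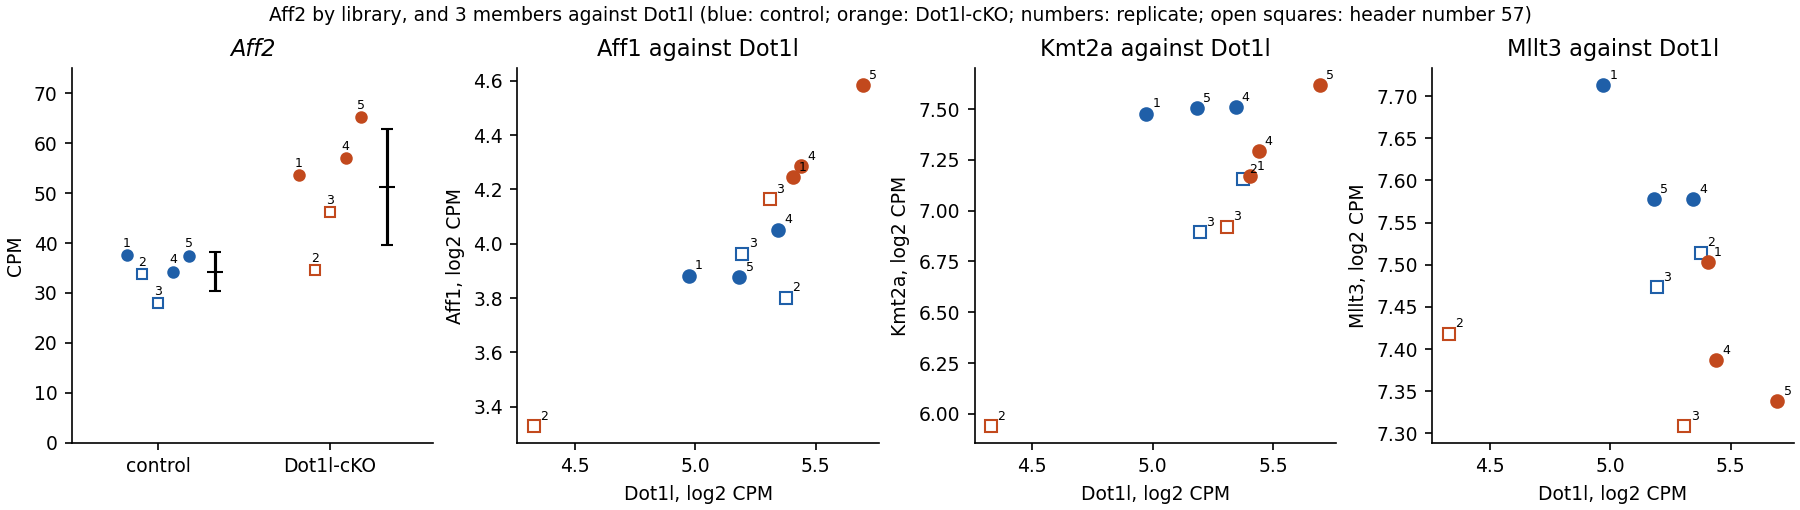
Left, Aff2 in CPM (axis from 0) in each library with the group mean ± SD in black. The other panels show log2 CPM of Aff1, Kmt2a and Mllt3 against that of Dot1l, 1 point per library, blue for control and orange for Dot1l-cKO, with the replicate number and open squares for header number 57. Dot1l-cKO replicate 2 lies at the lower left for Aff1 and Kmt2a and inside the range for Mllt3.

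Of the 5 other lists edgeR and DESeq2 each called 0 genes. The 11 genes for the P-TEFb reserve and for pausing, which include the P-TEFb inhibitor Hexim1 and the NELF subunits that hold the paused polymerase, had log2 fold changes from -0.11 to 0.25 with a median of -0.04 and 0 unadjusted p under 0.05. Supt5, the large subunit of the pausing and elongation factor DSIF, was their most abundant gene in CPM at 170 ± 16.8 in controls and 159 ± 23.7 in Dot1l-cKO (log2 fold change -0.09, 95% interval -0.33 to 0.15, edgeR adjusted p = 0.685).

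The 6 genes of the PAF1 complex, which travels with elongating polymerase, had log2 fold changes from -0.17 to 0.07, a median of -0.06 and 0 unadjusted p under 0.05. Ctr9 was the most abundant in CPM at 144 ± 2.99 in controls and 137 ± 11.3 in Dot1l-cKO (log2 fold change -0.07, 95% interval -0.22 to 0.07, edgeR adjusted p = 0.591). The 5 genes of H2B ubiquitination, a mark that stimulates DOT1L, ran from -0.18 to -0.01, with a median of -0.07 and 0 unadjusted p under 0.05. Their most abundant gene, the ubiquitin ligase Rnf20, had 175 ± 11.6 CPM in the control group, against 166 ± 12.5 CPM in Dot1l-cKO (log2 fold change -0.07, 95% interval -0.23 to 0.09, adjusted p = 0.632).

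The 8 genes of the KMT2A and KMT2B complexes ran from -0.24 for Kmt2b to -0.0029 for Hcfc2, with a median of -0.09 and 0 unadjusted p under 0.05. The value of Kmt2b rested on Dot1l-cKO replicate 2, at 28.7 CPM against 58.7 to 83.1 CPM in the other Dot1l-cKO libraries. Without that library its log2 fold change was -0.07 (edgeR adjusted p = 0.777). Psip1, which encodes the chromatin tether LEDGF, had 456 ± 63.3 CPM in the control group, against 433 ± 47.7 CPM in Dot1l-cKO (log2 fold change -0.07, 95% interval -0.32 to 0.17, edgeR adjusted p = 0.766). The other YEATS-domain genes, Yeats2 and Yeats4, had -0.12 and -0.17, with adjusted p-values of 0.339 and 0.233. Yeats2, the more abundant, had 121 ± 5.13 CPM in the control group, against 111 ± 7.63 CPM in Dot1l-cKO. Without Dot1l-cKO replicate 2, the fit in which Aff1 was called too, Yeats4 was called at -0.23 (adjusted p = 0.0392).

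**Figure D5:**
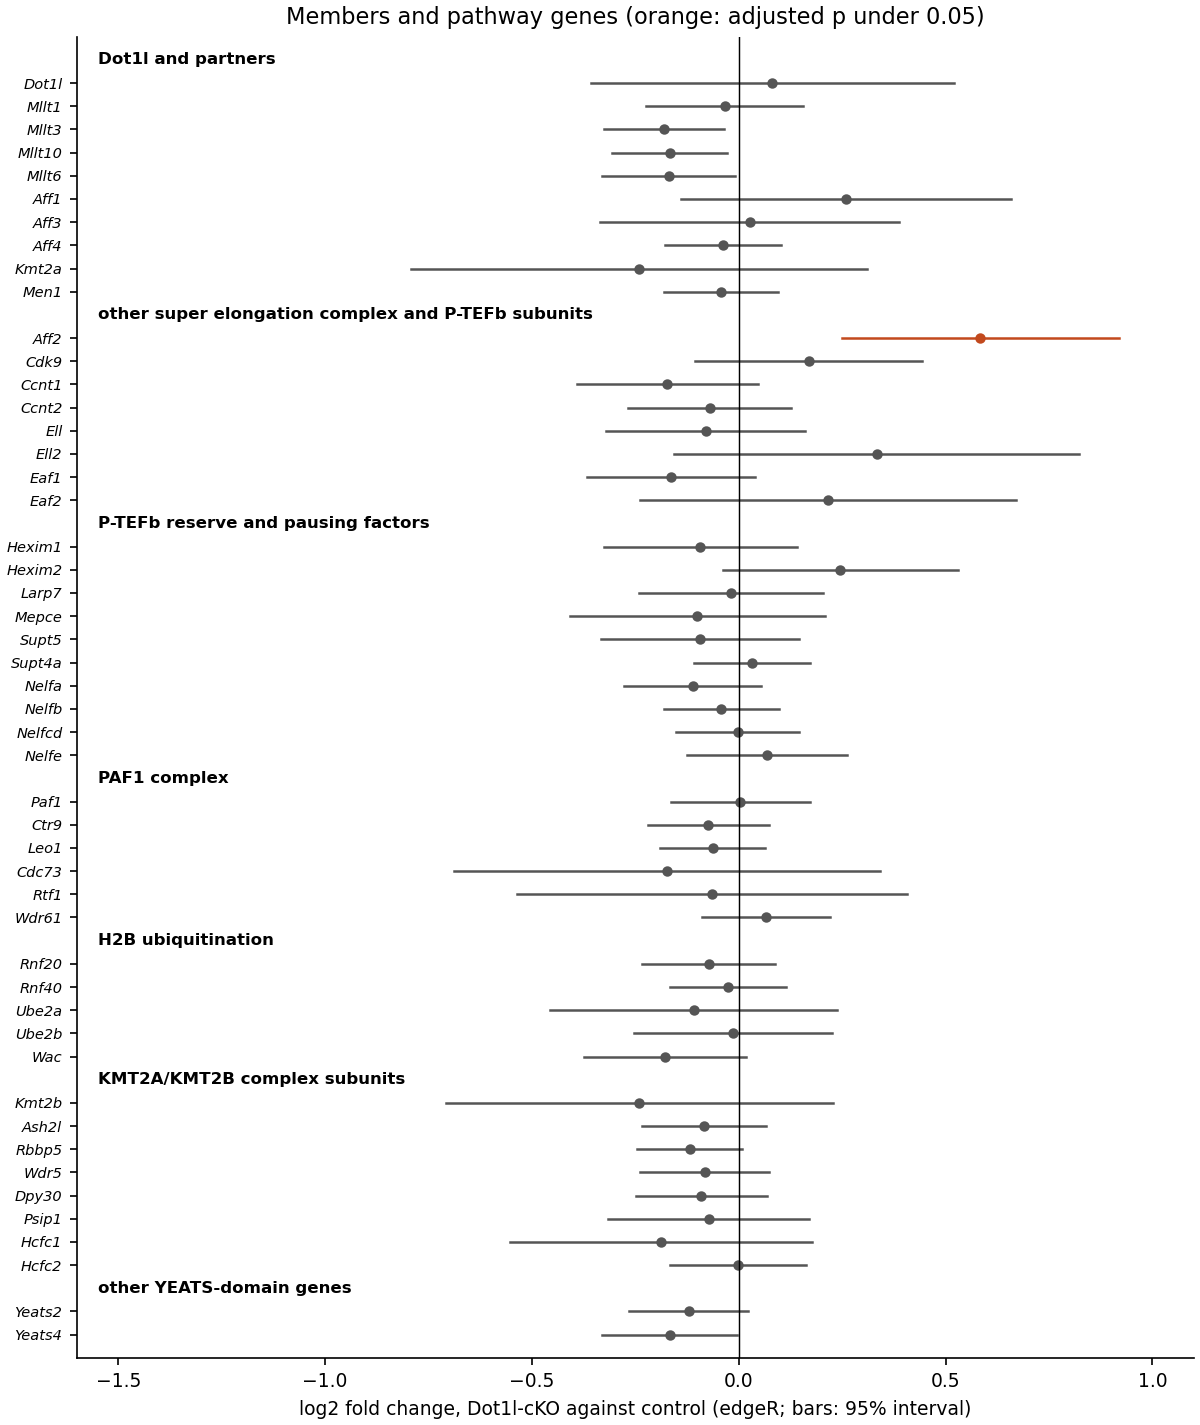
Log2 fold change of Dot1l-cKO against control (horizontal axis) with its 95% interval from edgeR for the 10 members and 39 of the 40 tested pathway genes, grouped by list, with orange for an adjusted p under 0.05. Aff2 at 0.58 is the gene in orange, and Kmt2a at -0.24 is the lowest of the members.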

How the data were processed

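RNA-seq of 10 samples was used, 5 per group, labelled as biological replicates. Per the labels and the study's methods, the authors made rRNA-depleted stranded libraries, sequenced paired ends, trimmed reads with Trim Galore 0.2.8, mapped them to mm10 with TopHat2 2.0.9 and counted them per gene with HTSeq 0.6.0. The deposited raw tables hold these counts, and the deposited normalised tables hold a signal, the same counts divided by a DESeq2 1.6.1 size factor. Counts of the members ran from 578 to 31082 per sample, and precision from counts covers counting error only. Of the identifiers 42462 matched a GENCODE symbol, and 0.268% of the counts had none. Mllt10 and Kmt2a each overlap an exon of 1 antisense gene, and counting was stranded. Chi-square between same-group samples over genes reached 30.8 or more per degree of freedom, so each sample was 1 replicate.

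Genotypes were compared with edgeR 4.0.16 (filterByExpr, TMM, quasi-likelihood test, no covariate, Benjamini-Hochberg over all genes tested, called under 0.05). The code was checked on simulated data. CPM used TMM library sizes, log2 CPM a prior count of 2, and intervals the t distribution of the fit. Alternatives used DESeq2 1.42.0 and limma 3.58.1 with a pseudocount of 1 on log2 values. Of the same-numbered samples every pair had deviations from the group means that correlated across genes (0.13 to 0.60), so the numbers, which come from the labels, were taken as pairs in the replicate block. Of the 5 controls, 2 correlated best with the Dot1l-cKO sample of their own number, and of the 5 Dot1l-cKO samples 3 did so with controls. Control replicate 3 had 0.45 with Dot1l-cKO replicate 5 against 0.15 with replicate 3.

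Named were the members, called pathway genes, the most abundant gene of each pathway list in CPM and the 5 genes most like Dot1l. Others named, such as Yeats4, Cdk9, Kmt2b and Hcfc2, were chosen after their values were seen. Another gene of the rule is not reported here. The members and lists were chosen with earlier results of these data known.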

Additional observations from a re-analysis of the deposited data

Results flagged for a closer look

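In a group of 5 samples, the gap of the extreme sample to its neighbour was divided by the range of log2 CPM and compared with Dixon's 95% critical value, for 18 genes in 2 groups. Chance passes this limit in about 1 in 20 groups, and 2 of 36 passed. Dot1l-cKO replicate 2 was far below the others for Dot1l, with a gap of 0.717 of the range. Dot1l-cKO replicate 1 stood apart for Yeats2, with a gap of 0.887 of the range.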

How the results depend on the processing

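Of the 10 members 0 were called under the replicate block, the header-number block, another normalization, both other low-count filters, limma and the removal of mitochondrial genes. DESeq2 called 2 members, and leaving out 1 library gave 0 to 1. The pairing by replicate number changed no call among the named genes: with the replicate block the log2 fold change of Dot1l was 0.03 (adjusted p = 0.941), 0 members were called and the pathway count stayed at 1. Genes called in all were 1604 with that block, 1818 with the header-number block and 2011 by DESeq2, against 1212. The pathway count was 0 with DESeq2 size factors, with limma and within header number 57, and 0 to 2 with 1 library left out.

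The log2 fold change of Dot1l was -0.0058 by limma, -0.37 by edgeR and -0.47 as a difference of mean log2 CPM within header number 57, and -0.046 to 0.25 with 1 library left out. Sign changes of small values were found for Mllt1 (-0.092 to 0.015 with 1 library left out) and Aff3 (-0.052 to 0.14 with 1 library left out, -0.0024 by DESeq2, -0.0024 with its size factors, -0.0099 by limma). Within header number 57 the value by edgeR was -0.060 for Aff1, 0.010 for Aff4 and 0.039 for Ctr9, and within the other samples it was 0.0091 for Men1. The cause of these shifts was not tested. Fits within a header number or without replicate 2 of both groups were added after the data were examined. The count of members called by the interaction was 0 in every fit. Within header number 57, 2 against 2 samples, edgeR called 5 genes of all tested.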

Other observations

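The genes whose log2 CPM was most like that of Dot1l over the 10 samples, among 12658 genes compared, were Sema4d with a Pearson r of 0.98, Qpctl with 0.97, Amigo1 with 0.96, Pcnx with 0.96 and Alg3 with 0.94. Each had its lowest level in Dot1l-cKO replicate 2, at 12.1 CPM for Sema4d against 17.3 to 30.9 CPM in the other 9 libraries. Without that library r was 0.95 for Sema4d, a semaphorin that binds plexins, and 0.78 to 0.90 for the other 4 genes. Among the partners Aff1 was the most like Dot1l, at rank 38, followed by Kmt2a at rank 359 and Aff3 at rank 996. When Dot1l-cKO replicate 2 was left out Aff1 was at rank 55, Aff3 at rank 3296 with an r of 0.27, Men1 at rank 4186 and Kmt2a at rank 4259 with an r of 0.16. Mllt1 was at rank 9446 with an r of -0.40. These values describe libraries that share genotype, depth and base composition, with no test.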
